A study of Rattus norvegicus with 31 samples.

Results

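Noradrenergic neurons of the sympathetic nervous system make, store, release and recapture noradrenaline, and their axons supply fat and the vessel wall. Their cell bodies, which hold most of a neuron's RNA, sit in ganglia beside the spine and near the great vessels. A set of 9 genes that mark these neurons was followed here across fat of the rat thoracic aorta. It was chosen by name and comprised Th, Dbh, Slc18a2, Slc6a2, Prph, Uchl1, Phox2a, Hand2 and Chrna3. Each of the 9 had 1 entry among the 32883 gene entries of the deposited tables.

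RNA was sequenced from male Sprague-Dawley rats, aged 10 to 15 weeks by the labels, with a time point of 15 weeks. In coarcted rats a silk ligature was tied around the descending thoracic aorta over a blunt needle that was then withdrawn, which by the labels gave a systolic gradient near 20 mmHg when recorded 4 weeks later. In sham-operated rats the ligature was left loose. Perivascular adipose tissue (PVAT, the fat around the aorta) was taken above and below the ligature, and a depot of brown adipose tissue (BAT) was sampled as well. The libraries numbered 6 for coarct above, 6 for coarct below and 5 for coarct BAT, and 5 for sham above, 5 for sham below and 4 for sham BAT. Library totals ran from 15713160 to 26530733 counts, at which 3 counts correspond to 0.113 to 0.191 CPM, the count scaled to a library total of 1000000. Of the brown adipocyte markers, the uncoupling protein Ucp1 lay at 830.4 to 2504 CPM and Cidea at 950 to 2459 CPM over all libraries. Cox7a1 was at most 1.34 CPM and Elovl3 at most 2 counts in any library. Fabp4, which adipocytes express in general, lay at 4377 to 10470 CPM. Libraries of different sites carry the same number in their titles, but whether a number stands for a single rat is not stated, and the p-values below measure only the spread between these samples.

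The genes encode successive parts of 1 neuronal machinery. Tyrosine hydroxylase (Th) makes DOPA from tyrosine in the rate-limiting step of catecholamine synthesis, and dopamine beta-hydroxylase (Dbh) turns dopamine into noradrenaline inside vesicles. The vesicular monoamine transporter (Slc18a2) fills the vesicles and the noradrenaline transporter (Slc6a2) takes released noradrenaline back up. Chrna3 is the nicotinic receptor subunit that receives the preganglionic input. Phox2a and Hand2 are transcription factors of sympathetic differentiation, Prph (peripherin) is a filament protein of peripheral neurons, and Uchl1 is an abundant neuronal ubiquitin hydrolase. In the tables Th (ENSRNOG00000020410), Slc18a2 (ENSRNOG00000008890) and Phox2a (ENSRNOG00000019706) lie on chromosome 1. Dbh (ENSRNOG00000006641) lies on chromosome 3, Prph (ENSRNOG00000052880) on chromosome 7, Chrna3 (ENSRNOG00000013829) on chromosome 8, Uchl1 (ENSRNOG00000002343) on chromosome 14, Hand2 (ENSRNOG00000060448) on chromosome 16 and Slc6a2 (ENSRNOG00000016311) on chromosome 19.

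RefSeq promoters of the rat assembly GRCr8, from 250 bases before to 50 bases after the start, were matched for 8 of the 9 genes. Those of the synthesis and storage genes Th, Slc18a2 and Dbh are printed. Counts of Th and Slc18a2 per count of Dbh varied by 1.22-fold and 1.25-fold in the libraries described below. They lie at chr1:207508169-207508468 on the minus strand, chr1:268399771-268400070 on the plus strand and chr3:30886078-30886377 on the plus strand. Capitals mark the cyclic AMP response element TGACGTCA and the homeodomain core ATTA in Th and the former in Slc18a2. In Dbh they mark ATTA and the element's core TGACG, which reads CGTCA on the printed strand and in 1 place shares a base with ATTA.
Th: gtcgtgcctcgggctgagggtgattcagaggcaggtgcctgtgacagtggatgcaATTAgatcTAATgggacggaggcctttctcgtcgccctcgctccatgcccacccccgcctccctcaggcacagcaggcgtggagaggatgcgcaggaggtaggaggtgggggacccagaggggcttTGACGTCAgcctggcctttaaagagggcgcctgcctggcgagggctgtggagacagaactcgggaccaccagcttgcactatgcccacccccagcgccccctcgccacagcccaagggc
Slc18a2: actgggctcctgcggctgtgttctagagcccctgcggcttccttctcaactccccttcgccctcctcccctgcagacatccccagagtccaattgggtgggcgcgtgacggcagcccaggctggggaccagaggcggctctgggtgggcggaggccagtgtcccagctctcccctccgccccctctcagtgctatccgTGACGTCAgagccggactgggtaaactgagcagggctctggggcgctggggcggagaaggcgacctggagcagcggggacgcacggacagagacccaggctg
Dbh: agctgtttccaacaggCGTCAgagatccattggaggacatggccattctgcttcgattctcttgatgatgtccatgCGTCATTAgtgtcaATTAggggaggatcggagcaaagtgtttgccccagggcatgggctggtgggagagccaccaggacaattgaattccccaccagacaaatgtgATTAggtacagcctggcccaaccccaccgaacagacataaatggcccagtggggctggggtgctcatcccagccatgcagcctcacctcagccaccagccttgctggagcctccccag

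Both strands were searched. TGACGTCA was present in 2 of the 8 promoters, 69 bases before the start of Th and 52 bases before that of Slc18a2, and in 1.83% of the 33469 promoters of the table. Its core TGACG, part of every such match, was present in 4 of 8 (Th, Dbh, Slc18a2 and Hand2) against 21.2% of all promoters. ATTA was present in 4 of 8 (Th, Dbh, Uchl1 and Hand2) against 60.6%, and the E-box CANNTG in 6 of 8 against 72.1%. The E-box CATCTG and the GATA motif AGATAA were present in Hand2 alone, against 16.6% and 11.6% of all promoters. A match describes the letters of these windows and is not a measured binding site.

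Transcripts of these neurons were abundant in 5 of the 31 libraries, all from PVAT below the ligature. They were coarct below 23, 25, 29 and 30, and sham below 28. Summed over the 9 genes, the level was 424, 656, 263 and 374 CPM in those 4 coarcted libraries and 424 CPM in the sham library. The other 26 libraries, which included coarct below 19 and 27 and the 4 other sham below libraries, lay between 7.25 and 18.4 CPM. No library of PVAT above the ligature or of BAT was among the 5. Those above the ligature include the numbers 23, 25, 28, 29 and 30, and those of BAT the numbers 23, 29 and 30. In bulk tissue a library with fewer cells of a type and one with less RNA per cell cannot be told apart.

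The 5 libraries are those with at least 100 counts of Dbh, so Dbh sets them apart from the rest by definition. Dbh counts were 2044, 2422, 1417 and 1649 in coarct below 23, 25, 29 and 30, and 1522 in sham below 28. The highest count in any of the other 26 libraries was 6, in sham above 22, and 16 of them had none. The gap between libraries with and without the transcript was thus far wider than the differences among those that had it, which ran from 60.9 to 143 CPM.

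**Figure D1:**
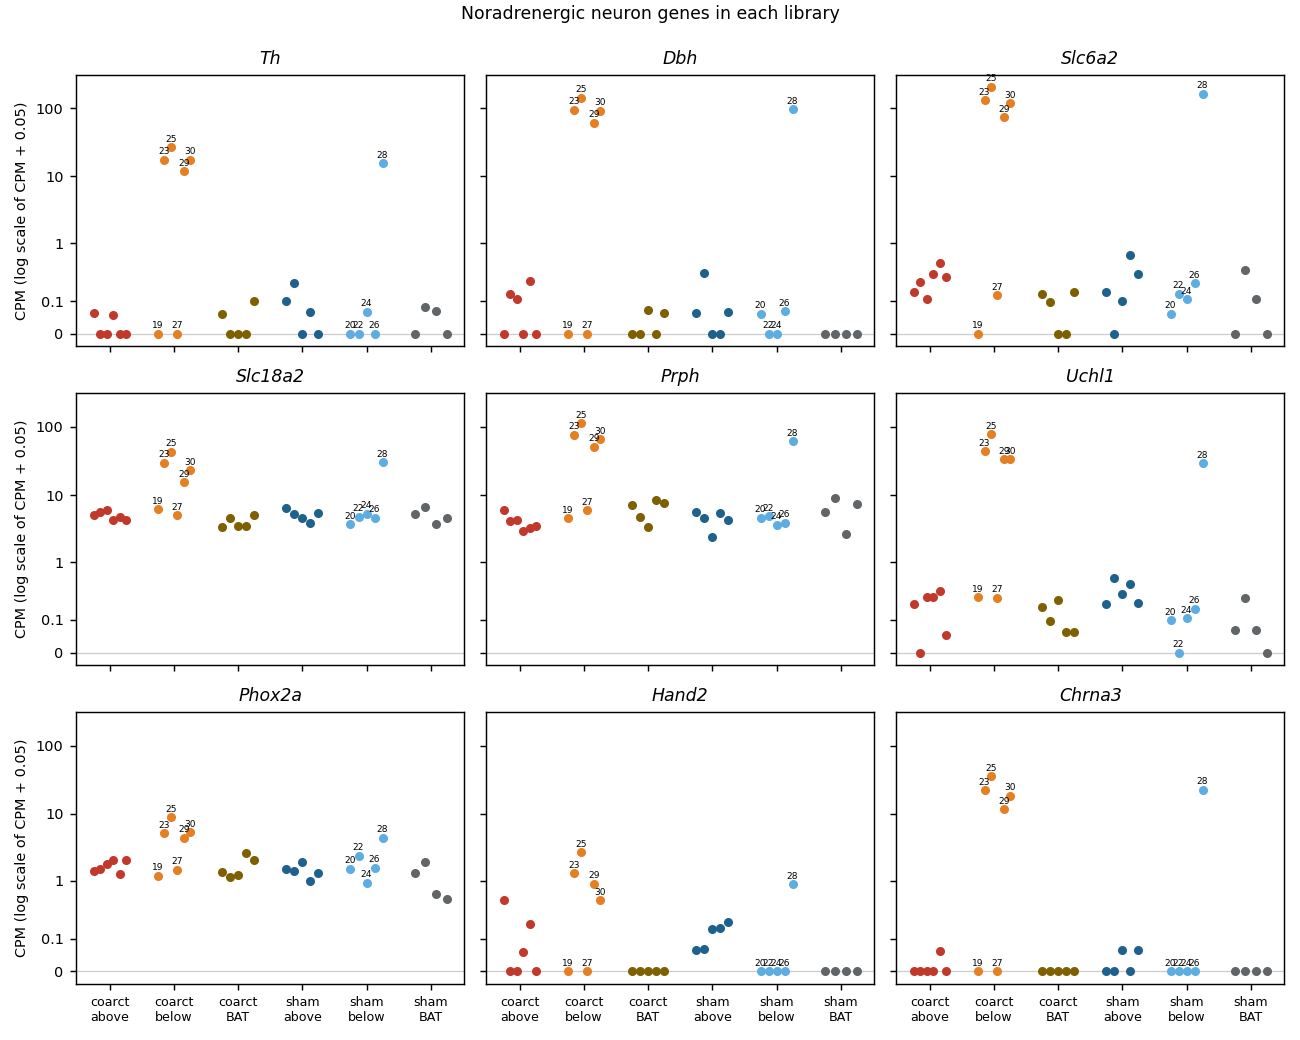
Each panel plots 1 gene, with every library as a point at its CPM (vertical axis, log scale of CPM + 0.05) in the 6 groups; the numbers beside the points are those of the libraries below the ligature. Coarct below 23, 25, 29 and 30 and sham below 28 stand above the rest in every panel except that of Hand2, where coarct above 19 reaches 0.509 CPM beside 0.497 CPM in coarct below 30.

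Th, which precedes Dbh in the pathway, followed the same libraries at a lower level. It measured 17.6, 26.7, 12.0 and 17.5 CPM in coarct below 23, 25, 29 and 30 and 15.6 CPM in sham below 28. Elsewhere its highest count was 4 and 16 of 26 libraries had none, among them coarct below 19 and 27. The genes of reuptake and synaptic input behaved alike. Slc6a2 reached 131, 205, 73.0 and 118 CPM in those coarcted libraries and 162 CPM in sham below 28, and at most 0.669 CPM elsewhere. Chrna3 reached 22.4, 35.5, 11.8 and 18.4 CPM and 22.5 CPM, and the other 26 libraries held at most 1 count each. Of all 9 genes Chrna3 was the one most often at 0, in 23 of those 26 libraries. Uchl1 measured 44.2, 78.2, 33.5 and 33.8 CPM and 29.1 CPM in the same order, and at most 0.563 CPM in the others.

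Slc18a2, Prph and Phox2a had in addition a low level in every library. Slc18a2 lay between 3.37 and 6.71 CPM in the 26 libraries with few Dbh reads and at 29.97, 43.5, 15.5, 23.2 and 30.7 CPM in coarct below 23, 25, 29 and 30 and sham below 28. Prph lay between 2.43 and 8.97 CPM in the former and at 76.7, 113, 51.0, 66.2 and 61.7 CPM in the latter. Libraries above the ligature, below it and from BAT overlapped in this low level. Sham BAT 22 had the highest value of the 26 for both Slc18a2 and Prph. The same library had the highest summed Schwann and satellite glia genes (1036 CPM) and mast cell genes (122 CPM) of all libraries, and whether these have a part in the low level was not tested.

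Phox2a measured 5.16, 9.01, 4.43, 5.36 and 4.45 CPM in those 5 libraries and 0.516 to 2.62 CPM in the others. The 2 sets of libraries did not overlap, but the gap was the narrowest among the genes other than Hand2. In RefSeq the gene overlaps Inppl1, a phosphatase gene at 36.2 to 86.0 CPM in the 26 libraries and 53.8 to 85.5 CPM in the 5. Uchl1 overlaps Apbb2 and Chrna3 overlaps LOC120094166 in the same way. The strand setting of the counting is not given in the sources used here, so reads of overlapping genes may not be fully separated.

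The 5 libraries were set by a cut on Dbh, which the other members follow. The share of all genes without overlap between the 5 and the 26 was not counted. Hand2 was the lowest of the 9 and the only one whose libraries overlapped. Its counts were 28, 46, 21 and 9 in coarct below 23, 25, 29 and 30 and 14 in sham below 28. It was at 0 in the 6 other libraries below the ligature and in all 9 BAT libraries. Above the ligature it was present at a few counts, with 1, 1, 3, 3 and 4 in sham above 20, 22, 24, 26 and 28. Among coarct above libraries the counts were 10 in number 19, 4 in number 29, 1 in number 27 and 0 in the remaining 3. Hand2 is also a transcription factor of the developing heart, and coarct above 19 had the highest summed cardiac muscle genes of all libraries, at 3192 CPM. Sham above 28, with the second highest sum at 2068 CPM, held 4 counts of Hand2. Th and Dbh were at 1 and 0 counts in coarct above 19 and at 0 and 1 in sham above 28. Among the 5 libraries rich in Dbh the cardiac sum was 2.97 to 74.7 CPM in 4 and 513 CPM in coarct below 25, which also had the highest Hand2. Of that 513 CPM, 496 CPM was Myh7, a myosin that slow skeletal muscle also expresses. The cardiac genes Myl7, Tnnt2 and Tnni3 were at most 0.177, 0.236 and 0.111 CPM in the 5. The part of cardiac tissue in the Hand2 counts above the ligature was not tested.

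**Figure D2:**
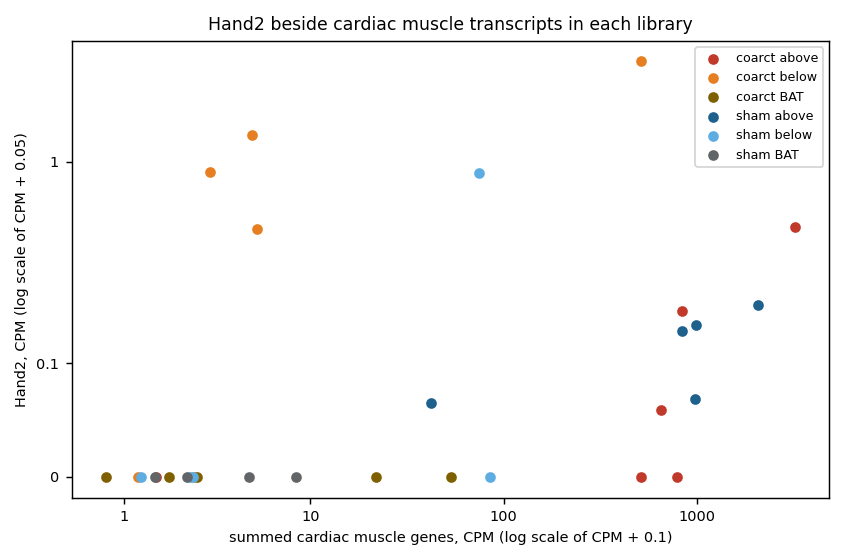
Each point is 1 library, with the summed CPM of 11 cardiac muscle genes on the horizontal axis (log scale of CPM + 0.1) and Hand2 CPM on the vertical axis (log scale of CPM + 0.05), coloured by group. Libraries with Hand2 lie at cardiac sums of 2.97 to 513 CPM below the ligature and 42.2 to 3192 CPM above it, ranges that overlap.

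Within the 5 libraries the genes kept broadly similar proportions to each other, but sham below 28 often lay outside the range of the coarcted libraries. Counts of Th per count of Dbh ran from 0.161 to 0.196, a range of 1.22-fold, while Dbh itself varied from 60.9 to 143 CPM. The 0.161 was that of sham below 28, against 0.185 to 0.196 in the coarcted libraries. Slc6a2 was at 1.67 in sham below 28 against 1.20 to 1.44, and Prph at 0.637 against 0.727 to 0.836. Uchl1 was at 0.301 against 0.371 to 0.550, and Phox2a at 0.0460 against 0.0543 to 0.0727. Slc18a2 was just above the coarcted range, and Chrna3 and Hand2 lay within it. Slc18a2 ran from 0.254 to 0.317 and Chrna3 from 0.193 to 0.249 per count of Dbh. The widest ranges were 1.83-fold for Uchl1 and 3.48-fold for Hand2, the latter resting on 9 to 46 counts. Ratios cover the whole count of a gene, including the low level that Slc18a2, Prph and Phox2a had everywhere.

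Per length, as FPKM (fragments scaled to gene length and library total), Dbh, Slc6a2, Prph and Uchl1 were the 4 most abundant of the 9 in each of the 5 libraries. Dbh made up 21.5 to 24.8% of the summed FPKM of the 9 genes, Slc6a2 17.3 to 26.7%, Prph 18.4 to 21.8% and Uchl1 14.3 to 23.7%. Their order changed between libraries, and they are not ranked among themselves. Th followed at 4.62 to 5.55% and Slc18a2 at 4.00 to 5.51%, which overlap, then Chrna3 at 2.72 to 3.62%. The transcription factors were lowest, with Phox2a at 1.45 to 2.08% and Hand2 at 0.431 to 1.30%. Th, the rate-limiting enzyme, thus had 0.188 to 0.229 of the FPKM of Dbh.

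**Figure D3:**
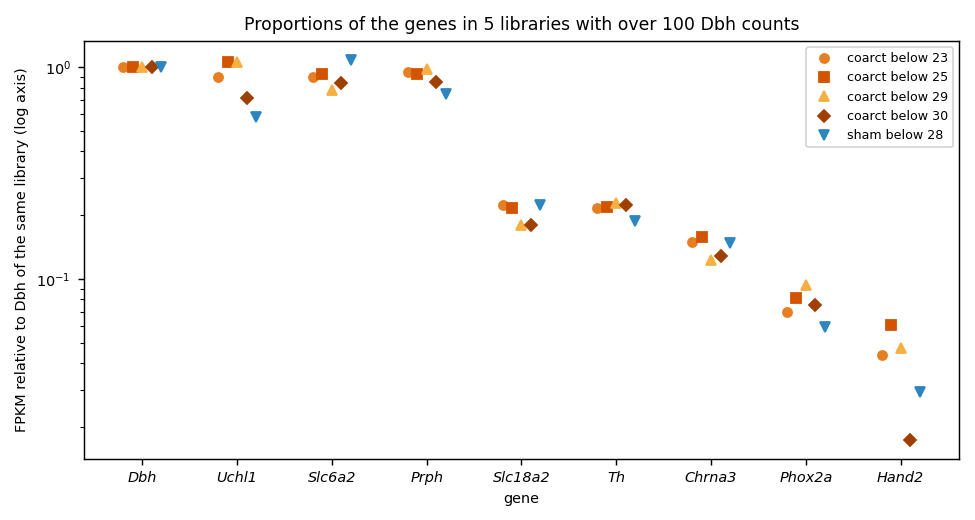
The FPKM of each gene is divided by that of Dbh in the same library (vertical log axis) for the 5 libraries with over 100 Dbh counts, 1 symbol per library. The symbols of a gene lie close together for Th (0.188 to 0.229) and spread most for Hand2 (0.0174 to 0.0606).

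Differences between sites in coarcted rats asked how the fat below the ligature compares with that above it. Summed over the libraries of a group, Dbh had 7532 counts below and 10 above, and Slc6a2 10143 and 34. Th had 1427 and 2 counts, a ratio of 742 after scaling to library totals, with an exact 95% interval of 205 to 6132 that covers counting error only. For Chrna3, with 1690 counts below and 1 above, the ratio was 1757 and its interval 315 to 69446. The 2 coarct below libraries without the transcripts overlap the coarct above libraries, so the groups did not separate for any of the 9 genes.

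The test across all genes (edgeR, quasi-likelihood) gave large differences with large errors. The log2 difference, coarct below minus coarct above, was 9.46 ± 2.19 (SE, n = 6 and 6) for Dbh, 9.03 ± 2.03 for Th, 8.20 ± 1.95 for Slc6a2 and 9.90 ± 2.25 for Chrna3. It was 7.27 ± 1.60 for Uchl1, 3.64 ± 0.77 for Prph, 1.96 ± 0.50 for Slc18a2 and 1.30 ± 0.40 for Phox2a. Of the 8 genes tested none passed, with edgeR adjusted p from 0.076 (Prph and Uchl1) to 0.188 (Phox2a), beside 0.103% of the 14556 genes tested. All 8 had an unadjusted p under 0.05, as did 791 genes in all. Hand2 did not pass the filter on low counts, and 5 of the 8 that did (Th, Dbh, Slc6a2, Uchl1 and Chrna3) are near 0 outside the 5 libraries, so that they could enter only by being high there.

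The call depended on which libraries were included and on the tool. Without coarct below 19, a library that lacks the transcripts, 7 of the 8 were called higher, all but Phox2a, beside 1.27% of genes. Without coarct below 27, the other such library, the same 7 were called beside 1.24%. DESeq2 called those 7 on all libraries, beside 1.53%, and limma on log2(FPKM + 1) called none, beside 0.0275%. With the title number as a block, edgeR called 0 of 3 members tested, beside 4 of 13804 genes. On the genes of the fit without it, a choice made after seeing the data, the block called 5, beside 73 of 14556 genes. Leaving out any 1 of coarct below 23, 25, 29 and 30 left 5 of the 9 tested and none called. Beside these, 12 of 14382, 17 of 14366, 12 of 14396 and 12 of 14399 genes were called, in that order.

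**Figure D4:**
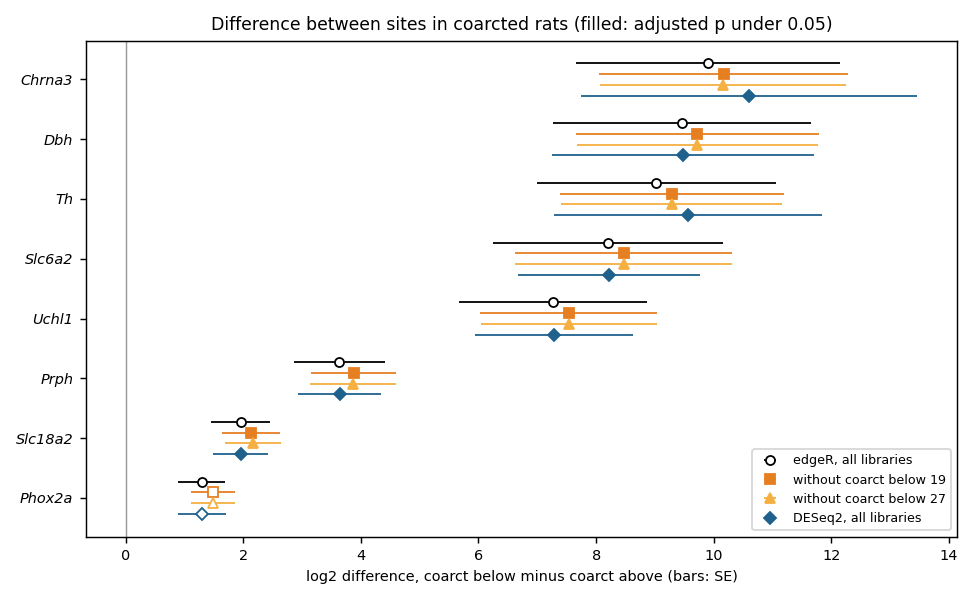
The log2 difference between coarct below and coarct above (horizontal axis, bars are SE) is drawn for the 8 genes tested, from edgeR on all libraries, edgeR without coarct below 19 or 27, and DESeq2; a filled symbol has an adjusted p under 0.05. The estimates for Dbh lie at 9.46 and above in every setting drawn, while the fill changes between edgeR on all libraries and the others. Fits without coarct below 23, 25, 29 or 30, which called none of the genes, are not drawn.

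In sham-operated rats the same comparison rested on 1 library. The log2 difference, sham below minus sham above, was 7.86 ± 2.37 (SE, n = 5 and 5) for Dbh, 7.15 ± 2.13 for Slc6a2, 5.39 ± 1.90 for Th and 1.06 ± 0.55 for Slc18a2. None of the 8 genes tested was called by edgeR (adjusted p 0.548 to 0.940), beside 0.0687% of genes. Of the 8, 6 had an unadjusted p under 0.05, as did 776 genes in all. DESeq2 called 1, Slc6a2, beside 0.303% of genes. Without sham below 28 the fitted differences were -1.43 for Dbh, -0.80 for Slc6a2, -2.0 for Th and -0.051 for Slc18a2, with none called, beside 0.0612% of genes.

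Below the ligature, coarcted and sham-operated rats were compared directly. The genes were abundant in 4 of 6 coarct below libraries and in 1 of 5 sham below libraries, and sham below 28 lay within the range of those 4 for 8 of the 9 genes. The exception was Uchl1, which at 29.1 CPM was under their lowest of 33.5 CPM. The log2 difference, coarct below minus sham below, was 1.57 ± 1.42 (SE, n = 6 and 5) for Dbh, 1.81 ± 1.29 for Th, 1.58 ± 0.75 for Prph and 0.89 ± 0.42 for Phox2a. No member and no gene of the table was called by edgeR (0% of 14556), with member adjusted p from 0.881 to 0.913. At an unadjusted p under 0.05 there were 2 members, Prph and Phox2a, and 746 genes, and DESeq2 called 0 members and 1 gene (0.00688%). Without sham below 28, 7 members were called higher, all but Phox2a, beside 1.15% of genes. The difference between the site differences of the 2 surgeries (interaction) was 1.60 ± 4.58 for Dbh and 3.64 ± 3.61 for Th. No member and 0% of genes passed it, with 0 members and 352 genes at an unadjusted p under 0.05 and 0 genes by DESeq2.

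Above the ligature the differences between the surgeries were smaller than their SE for all 8 genes tested. The log2 difference, coarct above minus sham above, was 0.02 ± 0.52 for Slc18a2, -0.11 ± 0.77 for Prph and 0.30 ± 0.42 for Phox2a. There were 0 members and 0% of genes called by edgeR, with 0 members and 523 genes at an unadjusted p under 0.05, and DESeq2 called 0 members and 8 genes (0.055%). In BAT the surgeries differed by -0.18 ± 0.22 for Slc18a2, 0.26 ± 0.38 for Prph and 0.84 ± 0.47 for Phox2a, the 3 genes that passed the filter. None was called by edgeR or DESeq2, nor was any gene (0%), with 928 genes at an unadjusted p under 0.05.

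Against BAT of coarcted rats, 3 genes were called higher in coarct below by edgeR, beside 2.71% of genes called higher and 4.2% in either direction. Slc6a2 differed by 9.74 ± 1.65 (adjusted p = 0.0036), Slc18a2 by 2.10 ± 0.40 (0.0071) and Prph by 2.76 ± 0.62 (0.0178) on the log2 scale. Phox2a, at 1.09 ± 0.42, did not pass (0.131), nor did Hand2 (0.0588). Hand2 had 104 counts in coarct below and none in coarct BAT, at least 28.4-fold higher against a floor of 3 counts over the group. Chrna3, with 1690 counts and none, was at least 461-fold higher. Th, Dbh, Uchl1 and Chrna3 missed the filter, which asked for expression in 5 libraries where 4 carried them. Slc6a2 and Hand2 passed it through those 4 and 1 coarct above library each, number 29 at 0.497 CPM and number 19 at 0.509 CPM, so that they could enter only by being high in coarct below. Without any filter 7 of the 9 were called, beside 3.13% of genes, and DESeq2 called 4 of 5, Hand2 included, beside 9.75% of genes. Limma on log2(FPKM + 1) called 2 of 5, beside 476 of 14276 genes. Fits of only the groups compared, or with a block for the title number, also called fewer members than the main fit, as given at the end.

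These calls moved with the libraries included. Without coarct below 23, 25, 29 or 30, the calls were Slc18a2 and Prph of 3 tested, beside 2.17%, 2%, 3.06% and 2.95% of genes. Without coarct below 19 or 27 there were 4 calls, with Hand2 added, beside 3.94% and 3.29% of genes. Leaving out coarct BAT 19, 23, 29 or 30 gave 7 calls of 9 tested, beside 3.04%, 4.85%, 3.62% and 4.56% of genes. Leaving out coarct BAT 27 gave 8, beside 17.9% of genes. In these 5 settings the filter asked for 4 libraries. PVAT above the ligature against BAT gave no member call by edgeR in coarcted rats (5 tested, 1.28% of genes called) or sham-operated rats (3 tested, 0.648%). At an unadjusted p under 0.05 there were 0 members in both, beside 2382 and 1152 genes. DESeq2 called 0 members in both, beside 3.56% and 1.64% of genes. Sham below against sham BAT also gave none of 3, beside 0.81% of genes called, and none by DESeq2 (2.31%). At an unadjusted p under 0.05 it had 0 members, beside 1488 genes. A block for the number in the titles cannot use sham below 28, since sham BAT has no library of that number, and so holds no library with the transcripts. It called 0 of 3 members and 279 of 13496 genes (2.07%), beside 115 genes with all 3 sham groups and 66 with these 2 groups alone.

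Other genes of sympathetic neurons, from lists kept beside the 9, followed the same libraries. Hand1, a relative of Hand2, measured 1.12 to 4.12 CPM in the 5 libraries and at most 0.319 CPM elsewhere. The receptor subunit Chrna7 measured 2.41 to 9.90 CPM in the 5 and at most 0.117 CPM elsewhere. For the transcription factor Isl1 the ranges overlapped, at 0.884 to 3.83 CPM in the 5 and at most 1.30 CPM elsewhere. Of 14 such regulators and receptors, 12 were tested between coarct below and coarct above, with 0 called and a median log2 difference of 2.95, beside -0.01 over all genes. Among those with the lowest p were Hand1 (5.14 ± 1.28), Isl1 (3.27 ± 0.82) and Chrna7 (9.07 ± 2.36). Their edgeR adjusted p ran from 0.086 to 0.113.

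Among the partners of synthesis and storage the decarboxylase Ddc, which makes dopamine, reached 8.39 to 26.6 CPM in the 5 libraries and at most 2.39 CPM elsewhere. Cyb561, which supplies electrons to Dbh in the vesicle, reached 33.2 to 78.6 CPM against 8.64 to 19.7 CPM. Gch1, Pts, Spr and Qdpr, of the synthesis and recycling of the tetrahydrobiopterin that Th needs, had overlapping ranges in the 5 and the 26. For example, Gch1 lay at 1.59 to 3.004 and 0.712 to 2.68 CPM. None of the 6 genes was called between coarct below and coarct above, with log2 differences of 3.49 ± 1.18 for Ddc (adjusted p = 0.284), 1.44 ± 0.43 for Cyb561 (0.160), 0.55 ± 0.25 for Gch1 (0.831) and 0.12 ± 0.14 for Spr (0.9998).

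The vesicle cargo was uneven. Scg2, Chgb and Chga, granins of the secretory granule, measured 6.24 to 16.6, 5.25 to 14.4 and 1.29 to 4.06 CPM in the 5 libraries and at most 0.266 CPM elsewhere. Their differences between coarct below and coarct above were 8.46 ± 1.94, 5.61 ± 1.28 and 5.27 ± 1.17 on the log2 scale, with adjusted p of 0.078, 0.078 and 0.077. Npy, the peptide that many sympathetic neurons release with noradrenaline, had only 9, 15, 10 and 2 counts in coarct below 23, 25, 29 and 30 and 2 in sham below 28. A library outside the 5 had 22 counts of Npy, so its level did not follow the set. Gal had at most 2 counts in any library.

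Genes of neurons in general were low outside the same libraries. Syt1, the calcium sensor of vesicle release, lay at 31.8 to 106 CPM in the 5 and at most 0.479 CPM in the 26, and Tubb3, a neuronal tubulin, at 46.4 to 101 CPM and at most 2.29 CPM. Of 25 such genes 23 were tested, 0 were called and 23 had a positive fitted difference, with a median of 4.84. The lowest p belonged to Snap25 (7.07 ± 1.59), Syt1 (9.10 ± 2.07), Stx1a (1.84 ± 0.42) and Ina (7.93 ± 1.85), with edgeR adjusted p from 0.077 to 0.082.

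The genes most like the set over the 31 libraries were again neuronal. By Pearson correlation of log2(CPM + 0.5) with the mean of the 9 standardised genes, over 13965 genes, the highest were the filament gene Ina (0.995), Syt4 (0.993), Chd5 (0.993), Rit2 (0.993) and Slc10a4 (0.992), followed by Syt1, Stk32a, Nefl, Faim2 and Sult4a1 (0.992 to 0.991). These values describe 5 libraries that stand apart from 26 and hence carry no p. Against Dbh alone the closest were Nefl, Ina and Syt4, and against Slc18a2 alone Chrna7, Kif5c and Pirt (0.972 to 0.967). Between the 9 genes, r was highest for Th and Dbh (0.997) and lowest for Phox2a and Hand2 (0.795).

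Markers of other neurons were counted in the same libraries. Chat, which makes acetylcholine, had at most 2 counts in the 5, while Vip and the choline transporter Slc5a7, also found in cholinergic sympathetic neurons, measured 0.903 to 4.54 and 0.559 to 3.30 CPM. Vip and Slc5a7 were at most 0.171 and 0.167 CPM elsewhere. Their differences between coarct below and coarct above were 5.12 ± 1.20 and 7.46 ± 1.76 on the log2 scale (adjusted p = 0.082 and 0.086). Of 11 sensory neuron genes, Calca, Calcb, Tac1, Scn10a, Scn11a and Mrgprd had at most 2 counts in any of the 5 and Prdm12 had 0. Trpv1, P2rx3 and Piezo2 had 44 to 88, 43 to 116 and 8 to 53 counts in the 5, at CPM that overlapped those of the other libraries. Avil, which sensory neurons express, did not overlap, at 9.67 to 35.1 CPM against at most 8.19 CPM elsewhere (log2 difference 1.73 ± 0.45, adjusted p = 0.098). Summed, the sensory list lay at 16.7 to 45.3 CPM in the 5 and 4.44 to 16.4 CPM in the others. The chromaffin enzyme Pnmt, which makes adrenaline, had at most 1 count in the 5, and the summed chromaffin list lay at 0.318 to 1.0 CPM there and 0.394 to 2.34 CPM elsewhere. Within that list Penk lay at 0.127 to 0.651 CPM in the 5 and 0.191 to 2.23 CPM elsewhere. Slc18a1 went the other way, with 1 to 12 counts in the 5 and at most 3 elsewhere.

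Glial genes were present in every library, and their sum was higher in the 4 coarct below libraries rich in Dbh than in the other 2. Summed over 14 Schwann and satellite glia genes the level was 387, 497, 371 and 485 CPM in coarct below 23, 25, 29 and 30 and 348 CPM in sham below 28. It was 240 and 275 CPM in coarct below 19 and 27 and 200 to 357 CPM in the 4 other sham below libraries. L1cam, an adhesion molecule, lay at 13.6 to 29.2 CPM in the 5 and at most 9.39 CPM in the others. Between coarct below and coarct above none of 12 tested was called, with log2 differences of 1.81 ± 0.55 for L1cam (adjusted p = 0.177) and 1.07 ± 0.40 for Gpr37l1 (0.434). Mast cell genes summed to 34.0 to 70.7 CPM in the 5 and 39.2 to 122 CPM in the others, and trophic factors of these neurons to 6.05 to 9.43 and 7.33 to 16.3 CPM. None of the 8 and 5 tested genes of these lists was called.

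**Figure D5:**
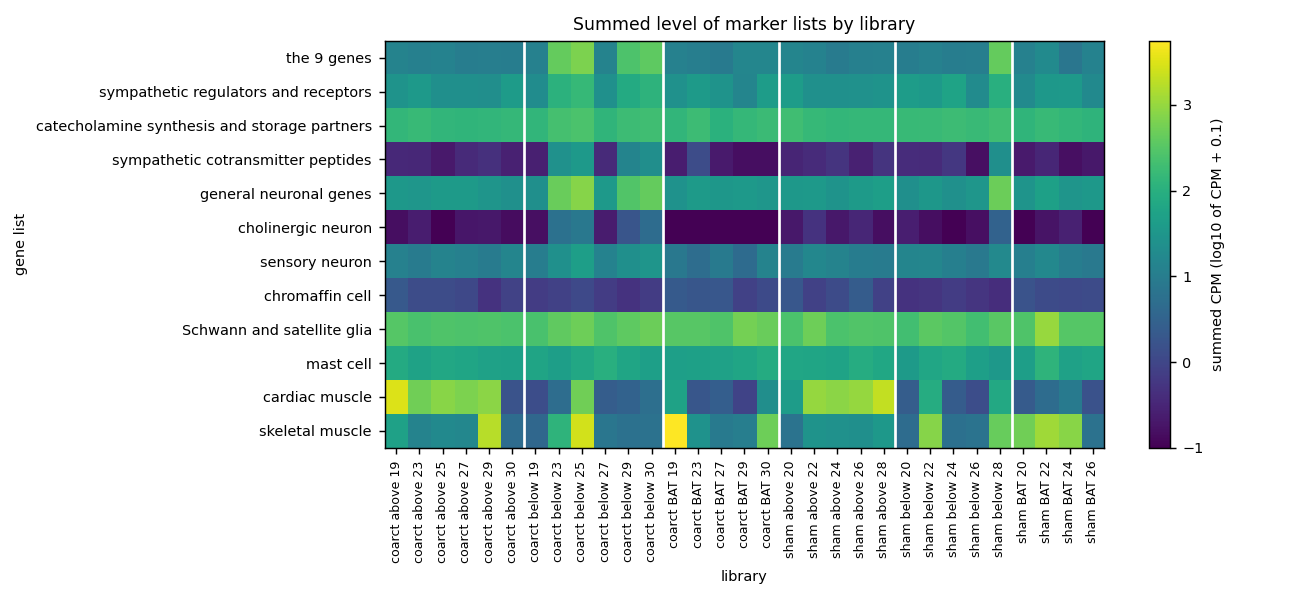
Each row is a list of marker genes and each column 1 library, coloured by the summed CPM of the list (log10 of CPM + 0.1), with white lines between groups. Coarct below 23, 25, 29 and 30 and sham below 28 stand out for the 9 genes and the sympathetic regulators. They also stand out for the peptides, the general neuronal genes and the cholinergic list (1.68 to 8.01 CPM against at most 0.394 CPM elsewhere). The sensory list is higher there by a narrow margin (16.7 to 45.3 CPM against 4.44 to 16.4 CPM). The chromaffin list does not stand out, and cardiac muscle is highest above the ligature.

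Other tissue varied between libraries as well. Cardiac muscle was the list with calls between coarct below and coarct above, 7 of 9 tested being lower below, and Myl7, an atrial myosin light chain, differed by -10.53 ± 1.30 (adjusted p = 6.4e-04). Coarct below 25, the library richest in the 9 genes, also had 2699 CPM of skeletal muscle genes, against 5.85 to 440.3 CPM in the other 4 of the 5. Its part in the values was not tested. A split of the libraries by 12S ribosomal RNA of the mitochondrion, 17 with at least 2572 CPM and 14 with at most 79.0 CPM, put coarct below 23 and 30 and sham below 28 on the first side and coarct below 25 and 29 on the second. The log2 difference of Dbh between coarct below and coarct above was 9.40 within the first side and 9.48 within the second.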

How the data were processed

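RNA of 31 rat fat libraries in 6 groups was analysed from the authors' tables. The authors deposited whole-number read counts per gene without normalisation, and FPKM values that equal count over gene length and library total. The submitters' processing notes name STAR (2.5), HTSeq (0.6.1) and DESeq2 (1.24.0) with no roles, and genome build, annotation and strand setting were not given in the sources used here. Counts were scaled to CPM and tested with edgeR 4.0.16 under R 4.3.3 (quasi-likelihood F test, TMM factors, filterByExpr), with Benjamini-Hochberg adjustment over all genes and calls at 0.05. The 4 PVAT groups shared a fit, as did the 3 groups of each surgery, and BAT was fitted alone. The SE is the absolute difference over the square root of F. Alternatives were DESeq2 1.42.0, limma 3.58.1 on FPKM with pseudocounts of 1 and 0.1, no filter, only the groups compared, 12S rRNA as a split or term, a block for the title number, and leaving out each library. The edgeR step was tested on simulated data. Intervals on count ratios are exact at 95%. The named genes are the 9 members, up to 4 genes of lowest p per list (coarct below minus coarct above), and the most alike genes; other genes were chosen after their values were seen. Members and lists were chosen with earlier results of these data known. Main tests left the title number out, also between sham below and sham BAT, where the block is given beside the main fit. There the 4 same-number pairs all correlated over 0.1 in their deviations (0.198 to 0.400). Of these pairs, number 20 correlated higher with another number (0.271 against 0.198). Sequences are RefSeq, GRCr8. Some list genes are not reported here by name. List genes without an entry were left out, and 25 date-like gene names were taken from the FPKM table.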

Additional observations from a re-analysis of the deposited data

Results flagged for a closer look

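A library stood far above the rest of its group in 10 of the 49 combinations of gene and group whose values differed at all. The rule marks about 1 in 20 for independent values with a normal spread. That rate cannot be set against these 10, since the genes follow each other and 1 count beside counts of 0 is always marked. Of these, 8 were sham below 28, with 15.6 CPM for Th, 96.9 CPM for Dbh, 162 CPM for Slc6a2, 30.7 CPM for Slc18a2, 61.7 CPM for Prph, 29.1 CPM for Uchl1, 0.891 CPM for Hand2 and 22.5 CPM for Chrna3. The other 4 sham below libraries had at most 0.0551 CPM of Th, 0.0564 CPM of Dbh, 5.35 CPM of Slc18a2 and 4.88 CPM of Prph. Dbh in sham above 22 stood apart at 0.338 CPM, which is 6 counts against at most 1 in the other sham above libraries. Chrna3 in coarct above 29 stood apart at 0.0497 CPM, which is 1 count against 0 in the other coarct above libraries.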

How the results depend on the processing

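Calls of members and of all genes depended on single libraries, and at 3 counts the floor of a library is 0.113 to 0.191 CPM. Leaving out each library in turn gave 0 to 7 members and 12 to 185 genes between coarct below and coarct above, the high ends without coarct below 19 (185) or 27 (180). It gave 8 to 23 genes between sham below and sham above (23 without sham above 20), and 0 to 7 members and 0 to 169 genes between coarct below and sham below (169 without sham below 28). Against BAT it gave 59 to 100 genes for sham above (59 without sham BAT 20) and 47 to 157 for sham below, with 47 to 65 without sham below 20 or 22 or any of the 4 sham BAT libraries. It gave 89 to 913 genes for coarct above, with 89 to 113 without coarct above 23, 25 or 27 or coarct BAT 19 or 29. For coarct below it gave 2 to 8 members and 284 to 2621 genes, with 307 and 284 without coarct below 23 and 25. The highest counts of both coarcted comparisons (913 and 2621) came without coarct BAT 27. The 2 BAT groups gave 0 to 1 gene, the latter without sham BAT 22.

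DESeq2 called 7 members and 222 genes between coarct below and coarct above (edgeR 0 and 15), and 1 member and 44 genes between sham below and sham above (edgeR 0 and 10). It called 8 genes for coarct above against sham above and 1 for coarct below against sham below, where edgeR called 0. Against BAT it called 232 (sham above, edgeR 92), 327 (sham below, edgeR 115), 507 (coarct above, edgeR 183) and 1389 genes (coarct below, edgeR 600). Limma on log2(FPKM + 1) called 4 genes between coarct below and coarct above, 34 for sham below against BAT and 60 for coarct above against BAT. With a pseudocount of 0.1 the first 2 of these were 8 and 43. Fits of only the groups compared gave 5 genes between coarct below and coarct above and, against BAT, 66 (sham below), 92 (coarct above) and 207 (coarct below, 1 member). Without a filter 7 members were called for coarct below against BAT.

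Within libraries with many 12S rRNA reads, 0 genes were called between coarct below and coarct above, between sham below and sham above and for sham below against BAT, 1 for sham above, 10 for coarct above and 19 genes with 0 members for coarct below against BAT. Within those with few, the counts were 9 between coarct below and coarct above and, against BAT, 48 (sham above), 8 (sham below), 16 (coarct above) and 0 (coarct below, 0 members). The side with few reads lacks sham below 28, and the difference between sham below and sham above was there -3.66 for Th, -1.17 for Dbh, -1.35 for Slc6a2, -0.37 for Slc18a2, -1.72 for Uchl1 and -2.77 for Chrna3. Leaving out each library gave -2.0 to 6.20 for Th, -1.43 to 9.34 for Dbh, -0.80 to 7.87 for Slc6a2, -0.051 to 1.27 for Slc18a2, -1.75 to 4.53 for Uchl1 and -2.11 to 7.96 for Chrna3, negative without sham below 28.

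The number in the titles as a replicate block gave 4 genes and 0 of 3 members tested between coarct below and coarct above. With the genes of the fit without it, an alternative chosen after seeing the data, it gave 73 genes and 5 members (Th, Dbh, Slc6a2, Uchl1 and Chrna3). Same-number pairs there correlated at 0.098 to 0.433 in their deviations, 5 of 6 over 0.1 and 4 of the 6 best with their own number. The main test left the number out, here as in every comparison. The correlations do not settle whether a number marks a rat. If it does, the main p-values ignore that pairing. Against BAT the block gave 44 genes for sham above, 279 for sham below, 49 for coarct above and 130 (0 of 3 members tested) for coarct below, where number 25 has no BAT library, and with the unblocked gene set 57, 295, 69 and 158 (1 member). The cause of these shifts was not tested.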
